A study of Mus musculus with 6 samples.

Results

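The transcripts followed here were those of the IL-1 family and the inflammasome in tumor-associated macrophages (TAMs). The set held 10 genes, taken by symbol: the agonists Il1a and Il1b, the receptor antagonist Il1rn, the decoy receptor Il1r2, the signalling receptor chains Il1r1 and Il1rap, the cytokine Il18 with its binding protein Il18bp, the sensor Nlrp3 and the protease Casp1. Each symbol matched 1 Ensembl gene among the 55421 genes of the count table, and all 10 passed the filter on low counts, with 14469 genes tested in all. The rule takes genes by symbol and sets no threshold on a measured value, but the genes were chosen with earlier results of these data known.

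TAMs were collected from the tumor site at day 15 after implantation, and 3 libraries of Pdcd1f/fLysMcre mice were compared with 3 libraries of Pdcd1f/f control mice. Both genotypes carry floxed alleles of Pdcd1, the gene of the inhibitory receptor PD-1, and the Pdcd1f/fLysMcre mice also express Cre recombinase from the lysozyme M locus, which removes the floxed gene in myeloid cells. The labels name the implanted cells M17 and the cells CD11b+F4/80+ TAMs, and the study's methods describe a fibrosarcoma line, MC17-51, in mice of 8 to 12 weeks, with both sexes in equal numbers. A gate that also asked for CD45 and for the absence of Ly6G is described in the methods for TAMs of another genotype and is not stated for these libraries. Neither source says whether a library came from 1 mouse or from pooled mice, so the p-values below measure only the spread between these libraries, which may be technical.

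IL-1α and IL-1β, the products of Il1a and Il1b, bind the same receptor chain, IL-1R1, which signals through MyD88 once the accessory chain IL-1RAP has joined it. The antagonist encoded by Il1rn occupies IL-1R1 without recruiting the accessory chain, and the decoy IL-1R2 captures the cytokine without a signalling domain. IL-1β and IL-18 are made as precursors that caspase-1 cleaves after an inflammasome sensor such as NLRP3 has assembled with the adaptor ASC, and the binding protein of IL-18 keeps the cleaved cytokine from its receptor. Macrophages are a main source of these cytokines, and of the antagonist, in inflamed tissue and in tumors.

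Library totals ran from 41833823 to 51417209 counts. Pdcd1 itself was low, at 10, 12 and 15 counts for Pdcd1f/f replicates 1 to 3 and at 7, 16 and 11 for Pdcd1f/fLysMcre. All of these were above the limit of detection of 3 counts. The log2 fold change was −0.25 (95% interval −1.24 to 0.74), so these counts over the whole gene did not show a loss of Pdcd1. Why no loss was seen was not tested. Lyz2, into which the LysMcre allele is inserted, was at 207974 to 225226 normalised counts in Pdcd1f/f and at 405 to 465 in Pdcd1f/fLysMcre, so the loss of Lyz2 and the deletion of Pdcd1 cannot be told apart in this design. The sum of 4 Y-linked transcripts was 1545 to 1914 normalised counts in Pdcd1f/f and 6267 to 7233 in Pdcd1f/fLysMcre, and Xist was at 17318 to 26511 and at 8530 to 13137. The genotypes thus differed in these sex-linked transcripts as well, and their part in the values below was not tested. Pdcd1f/f replicate 1 and Pdcd1f/fLysMcre replicate 2 stood apart from the other 4 libraries in that transcripts rich in GC were low in them (Spearman's rho between GC content and deviation from the genotype mean −0.76 and −0.70, against 0.19 to 0.71, each across 10607 genes). The member differences are therefore also given without these 2 libraries, a comparison of 2 against 2 chosen after the data were seen.

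Of the 10 members, 3 rose in Pdcd1f/fLysMcre TAMs, 1 fell and 6 did not pass the threshold (edgeR's quasi-likelihood test, adjusted p under 0.05 over all genes tested). Over all 14469 genes the same test called 5.43%, with 2.42% higher and 3.01% lower. The genes that rose were both agonists and the receptor antagonist, and the gene that fell was Il18bp. The libraries of the genotypes did not overlap for 8 of the 10 members, where 27.2% of all genes tested did not overlap. The median log2 fold change of the 10 members was 0.08, beside −0.003 for all genes tested. The study had already reported Il1a and Il1b as increased in these TAMs, and the members were chosen with such results known. The shares of members called or not overlapping are therefore a description and no test of the set.

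**Figure D1:**
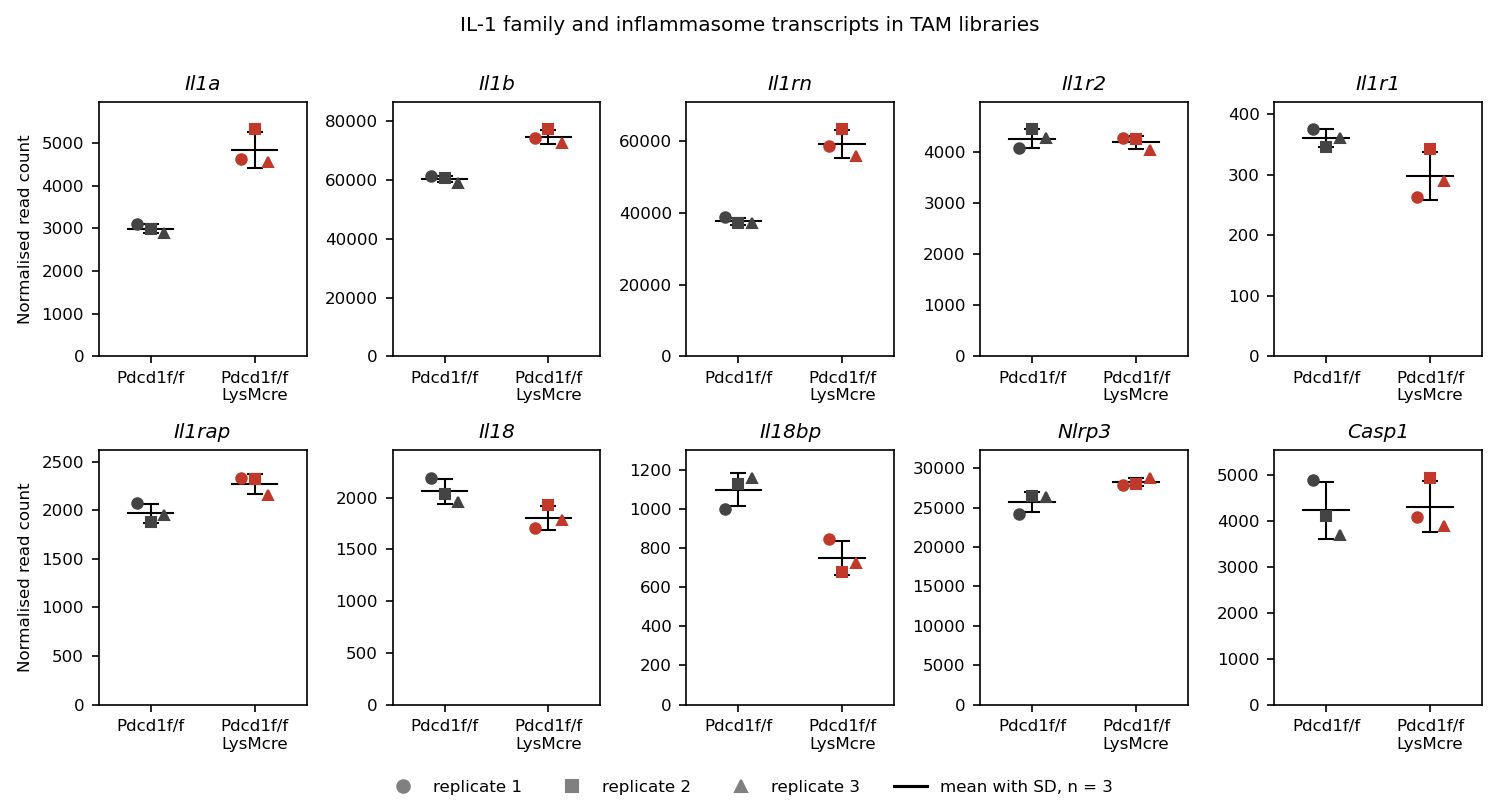
Normalised read counts (y axis, from 0, own scale per panel) of the 10 members in the 3 Pdcd1f/f libraries (grey) and the 3 Pdcd1f/fLysMcre libraries (red), with marker shapes for replicates and black bars for the mean with SD. The red points lie above all grey points for Il1a, Il1b, Il1rn, Il1rap and Nlrp3, below them for Il1r1, Il18 and Il18bp, and among them for Il1r2 and Casp1.

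The genes that rose lie on chromosome 2 (GRCm38). Il1a is at chr2:129299610-129309972 and Il1b at chr2:129364570-129371139, both on the minus strand and 54.6 kb apart, and Il1rn is at chr2:24336853-24351494 on the plus strand, 104.9 Mb away. Their promoters are shown because these transcripts moved together, and that of Il18bp because it is the member that fell. Il1rn has 3 RefSeq windows, and only the stretch of the first is printed. Gene counts do not show from which start of Il1rn the rise came. The stretches run from 150 bases before to 20 bases after the RefSeq transcript start (GRCm38.p6), 5′ to 3′ on the strand of the gene. Capitals mark letters of 1 of the motifs searched.
Il1a, chr2:129309953-129310122, minus strand: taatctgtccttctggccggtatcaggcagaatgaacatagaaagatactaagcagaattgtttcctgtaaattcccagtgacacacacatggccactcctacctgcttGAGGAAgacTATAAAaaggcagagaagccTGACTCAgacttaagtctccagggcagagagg
Il1b, chr2:129371120-129371289, minus strand: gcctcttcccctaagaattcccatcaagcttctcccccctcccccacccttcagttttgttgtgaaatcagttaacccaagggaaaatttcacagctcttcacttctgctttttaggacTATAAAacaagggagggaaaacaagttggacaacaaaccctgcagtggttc
Il1rn, chr2:24336710-24336879, plus strand: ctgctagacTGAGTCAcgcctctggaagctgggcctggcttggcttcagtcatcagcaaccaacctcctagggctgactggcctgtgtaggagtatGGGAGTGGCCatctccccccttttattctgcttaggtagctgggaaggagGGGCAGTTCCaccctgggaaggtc
Il18bp, chr7:102018213-102018382, minus strand: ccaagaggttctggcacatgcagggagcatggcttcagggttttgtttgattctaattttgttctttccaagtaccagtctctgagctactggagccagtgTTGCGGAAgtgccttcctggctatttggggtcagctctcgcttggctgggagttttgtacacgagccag

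The motifs were searched as letters on both strands of the RefSeq windows of 300 bases, 250 before and 50 after the start, of which the 10 members have 14. The letters were TATAAA for a TATA box, TGANTCA for AP-1, GAGGAA for the core of a PU.1 site, TTGCNNAA for C/EBP, GGGNNNNNCC as a loose form of an NF-κB site and GAAANNGAAA for an interferon-stimulated response element. Both agonist promoters held TATAAA, its first base 32 bases before the start in Il1a and 31 before it in Il1b, a sequence found in 4 of the 14 member windows, Il18 and the third window of Il1rn among them, and in 13.6% of all 32851 windows. Il1a also held GAGGAA at 41 bases before the start, which 3 of the 14 member windows have, those of Nlrp3 and Casp1 among them, and 28.3% of all windows, and TGANTCA at 12 bases before it. The first of the 3 windows of Il1rn held TGANTCA at 141 bases before the start, so that 2 of the 14 member windows, 1 of Il1a and 1 of Il1rn, held these letters, which are in 7.81% of all windows. The loose NF-κB letters occurred in 8 of the 14 member windows, among them the first of Il1rn at 54 and 4 bases before the start, and 50.8% of all windows contain them. Il18bp held TTGCNNAA at 49 bases before the start, as did the first window of Il1r1 at 133 bases before it (10.8% of all windows), and GAAANNGAAA occurred in 1 member, Il1rap (3.44% of windows). No letters of these motifs were found in the Il1r2 window. These matches describe the sequence and do not show binding.

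The agonist Il1a encodes IL-1α, which is active without cleavage and acts as an alarm signal when cells are damaged. Il1a was at 3105, 2985 and 2883 normalised counts in Pdcd1f/f replicates 1, 2 and 3 and at 4617, 5315 and 4561 in Pdcd1f/fLysMcre replicates 1, 2 and 3. Every Pdcd1f/fLysMcre library was above every Pdcd1f/f library, and the gap between the genotypes was wider than the range within either. The rise was 1.62-fold (log2 fold change 0.69 ± 0.08, SE, n = 3; 95% interval 0.53 to 0.86; adjusted p = 0.000695 by edgeR), and it was 0.64 on the log2 scale without the 2 libraries low in GC-rich transcripts. Il1a passed the threshold in each of the 6 fits that left out 1 library.

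Il1b, whose product IL-1β needs cleavage by caspase-1, was at 61189, 60748 and 59043 normalised counts in Pdcd1f/f and at 74248, 77129 and 72482 in Pdcd1f/fLysMcre. The groups did not overlap, and the SD within a genotype was 1133 and 2346 counts against a difference of means from 60327 to 74620. The rise was smaller than that of Il1a, 1.24-fold (log2 fold change 0.31 ± 0.06, SE, n = 3; 95% interval 0.18 to 0.44; adjusted p = 0.0128 by edgeR). Its value was 0.29 without the 2 libraries low in GC-rich transcripts, and it was between 0.28 and 0.32 when each library was left out in turn, but it passed the threshold in 3 of those 6 fits. Il1b was not called without Pdcd1f/f replicate 2 (adjusted p = 0.0854), without Pdcd1f/f replicate 3 (0.0605) or without Pdcd1f/fLysMcre replicate 1 (0.0843). Those fits differed in how many genes of any kind they called. The share of all genes called was 21.6% without Pdcd1f/f replicate 1, 1.51% without Pdcd1f/f replicate 2, 2.38% without Pdcd1f/f replicate 3, 1.51% without Pdcd1f/fLysMcre replicate 1, 2.50% without Pdcd1f/fLysMcre replicate 2 and 3.56% without Pdcd1f/fLysMcre replicate 3. Il1bos, an antisense transcript over Il1b, had 41 to 79 counts a library, 0.084% of the counts of Il1b over all libraries, and whether reads were counted by strand is not given in the sources used here.

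Il1rn, the antagonist, was at 38784, 37142 and 37189 normalised counts in Pdcd1f/f and at 58667, 63324 and 55822 in Pdcd1f/fLysMcre. The Pdcd1f/f libraries lay close together (SD 935, n = 3), and every Pdcd1f/fLysMcre library was far above all of them (SD 3787, n = 3). Il1rn rose 1.57-fold (log2 fold change 0.65 ± 0.06, SE, n = 3; 95% interval 0.51 to 0.80; adjusted p = 0.000365 by edgeR), with 0.62 without the 2 libraries low in GC-rich transcripts, and it was called in each of the 6 fits that left out 1 library. The gene gives a secreted antagonist and intracellular forms from different first exons. Gene counts do not separate these forms.

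Il1r2, the decoy receptor, was at 4078, 4445 and 4277 normalised counts in Pdcd1f/f and at 4270, 4255 and 4047 in Pdcd1f/fLysMcre. The groups overlapped, with the lowest library of all in Pdcd1f/fLysMcre and the highest in Pdcd1f/f. The difference was −0.02 on the log2 scale with a 95% interval from −0.16 to 0.12 (adjusted p = 0.852 by edgeR), an interval of 0.893-fold to 1.08-fold that does not reach the rise seen in Il1rn. Its sign depended on the fit, with values of 0.001 with GC and length offsets and −0.07 without the 2 libraries low in GC-rich transcripts.

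Set against each other within a library, where the scaling between libraries cancels, the agonists moved differently relative to the antagonist. The ratio of Il1a to Il1rn normalised counts was 0.080, 0.080 and 0.078 for Pdcd1f/f and 0.079, 0.084 and 0.082 for Pdcd1f/fLysMcre. These ranges overlapped, and the mean log2 ratio was −3.66 ± 0.03 and −3.62 ± 0.05 (SD, n = 3). Il1a and Il1rn thus rose by like factors in these libraries. The ratio of Il1b to Il1rn was 1.58, 1.64 and 1.59 in Pdcd1f/f and 1.27, 1.22 and 1.30 in Pdcd1f/fLysMcre. It was lower in every Pdcd1f/fLysMcre library, by 0.34 on the log2 scale, against SDs of 0.03 and 0.05. Counts are not corrected for length here, so a ratio above 1 does not say that there were more molecules of 1 transcript than of the other, and no test was run on the ratios. A bias that depends on GC content does not cancel in a ratio, and these ratios were not computed with GC and length offsets. In the fit with those offsets the log2 fold change was 0.30 for Il1b and 0.56 for Il1rn.

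With the decoy as the reference the direction was the opposite. The ratio of Il1b to Il1r2 was 15.0, 13.7 and 13.8 in Pdcd1f/f and 17.4, 18.1 and 17.9 in Pdcd1f/fLysMcre, higher by 0.33 on the log2 scale and with no overlap. The ratio of Il1rn to Il1r2 was 9.51, 8.36 and 8.70 in Pdcd1f/f and 13.7, 14.9 and 13.8 in Pdcd1f/fLysMcre, a log2 difference of 0.68. The blocker that competes at the receptor therefore rose against the blocker that captures the ligand. Within the agonists, the ratio of Il1a to Il1b went from 0.051, 0.049 and 0.049 to 0.062, 0.069 and 0.063, so that IL-1α transcripts took a larger part of the agonist pool in every Pdcd1f/fLysMcre library. Per kb of exon, Il1a made up 4.57% ± 0.09 of the sum of both agonists in Pdcd1f/f and 5.88% ± 0.32 in Pdcd1f/fLysMcre (SD, n = 3).

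On the same scale per kb of exon, the sum of the agonists was 4.80, 4.97 and 4.83 times the level of Il1rn in Pdcd1f/f and 3.89, 3.77 and 4.0 times in Pdcd1f/fLysMcre. All Pdcd1f/fLysMcre values of this relation were below all Pdcd1f/f values. With the length of the longest transcript in place of the union of exons, which differ for Il1rn (2554 and 5535 bp), the means were 3.12 ± 0.06 and 2.48 ± 0.07 (SD, n = 3). The height of the relation depends on the transcript length used, and the direction between the genotypes was the same with both lengths.

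**Figure D2:**
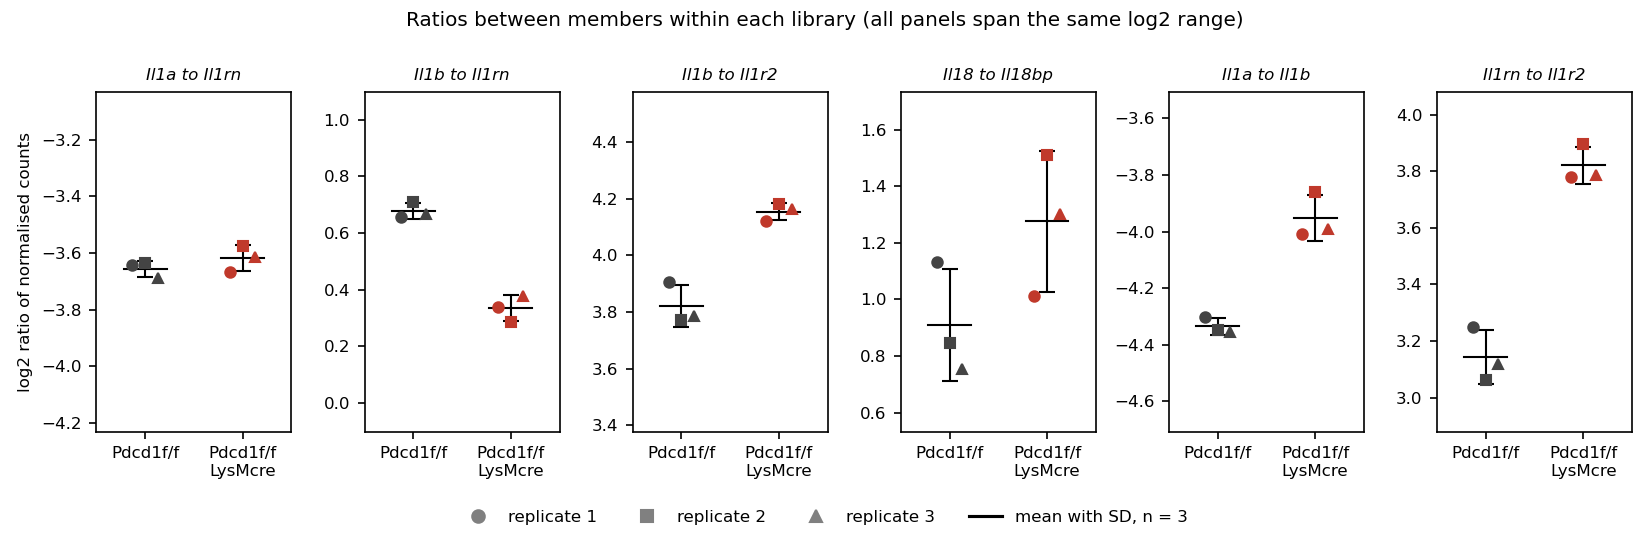
Log2 ratios of normalised counts (y axis, with the same span in each panel) between pairs of members in each Pdcd1f/f library (grey) and each Pdcd1f/fLysMcre library (red), with the mean and SD in black. The genotypes overlap for Il1a to Il1rn and for Il18 to Il18bp, Il1b to Il1rn is lower in all 3 Pdcd1f/fLysMcre libraries, and the other 3 ratios are higher in all of them.

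The signalling chains did not pass the threshold. Il1r1, at chr1:40225080-40317257, was at 375, 346 and 360 normalised counts in Pdcd1f/f and at 264, 342 and 289 in Pdcd1f/fLysMcre. The groups did not overlap, but the highest Pdcd1f/fLysMcre library was just below the lowest Pdcd1f/f library. The log2 fold change was −0.27 ± 0.12 (SE, n = 3; 95% interval −0.54 to −0.01; adjusted p = 0.196 by edgeR), and it was −0.36 without the 2 libraries low in GC-rich transcripts (adjusted p = 0.0325 by edgeR), where 26.2% of all genes were called. Il1r1 and Il1r2 lie on the chromosome of Pdcd1, 53.7 and 53.9 Mb from it, and no member lies on the chromosome of Lyz2. Il1rap, at chr16:26581704-26730117, which encodes the chain shared by the receptors of IL-1, IL-33 and IL-36, was at 2071, 1879 and 1956 normalised counts in Pdcd1f/f and at 2337, 2328 and 2155 in Pdcd1f/fLysMcre. All Pdcd1f/fLysMcre values were above all Pdcd1f/f values, by less than for the agonists. The log2 fold change was 0.21 ± 0.07 (SE, n = 3; 95% interval 0.05 to 0.37; adjusted p = 0.106 by edgeR), with 0.23 without the 2 libraries low in GC-rich transcripts (adjusted p = 0.0141 by edgeR) and 0.12 with GC and length offsets (adjusted p = 0.121). Of the 6 fits that left out 1 library, Il1rap passed the threshold in 1, without Pdcd1f/f replicate 1 (0.24, adjusted p = 0.0335 by edgeR).

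Il18, at chr9:50554827-50581840, encodes the IL-1 family cytokine that drives interferon-γ production by T cells and NK cells. Il18 was at 2193, 2031 and 1955 normalised counts in Pdcd1f/f and at 1702, 1930 and 1782 in Pdcd1f/fLysMcre. The groups did not overlap, but Pdcd1f/fLysMcre replicate 2 was just below the lowest Pdcd1f/f library. The log2 fold change was −0.19 ± 0.08 (SE, n = 3; 95% interval −0.36 to −0.02; adjusted p = 0.166 by edgeR), and it was −0.20 without the 2 libraries low in GC-rich transcripts (adjusted p = 0.0289 by edgeR). Bco2, which overlaps Il18 on the other strand, had 204 to 293 counts a library.

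Il18bp, at chr7:102014885-102018690 on the minus strand, was the member that fell. It was at 1002, 1130 and 1160 normalised counts in Pdcd1f/f and at 844, 677 and 722 in Pdcd1f/fLysMcre. Every Pdcd1f/fLysMcre library was below every Pdcd1f/f library. The level in Pdcd1f/fLysMcre was 0.683 times that in Pdcd1f/f (log2 fold change −0.55 ± 0.10, SE, n = 3; 95% interval −0.78 to −0.32; adjusted p = 0.0126 by edgeR), with −0.55 also without the 2 libraries low in GC-rich transcripts. Il18bp was called in 4 of the 6 fits that left out 1 library, and not without Pdcd1f/f replicate 2 (adjusted p = 0.0827) or without Pdcd1f/fLysMcre replicate 2 (0.0551). One end of Il18bp overlaps Numa1 on the other strand, which had 5041 to 6258 counts a library, so reads in the shared stretch could belong to either gene if reads were not counted by strand.

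The ratio of Il18 to Il18bp normalised counts was 2.19, 1.80 and 1.69 in Pdcd1f/f and 2.02, 2.85 and 2.47 in Pdcd1f/fLysMcre. The ranges overlapped, since Pdcd1f/f replicate 1 was above Pdcd1f/fLysMcre replicate 1. The mean log2 ratio was 0.91 ± 0.20 in Pdcd1f/f and 1.28 ± 0.25 in Pdcd1f/fLysMcre (SD, n = 3). The difference of 0.37 was larger than either SD, and it was between 0.25 and 0.50 when each library was left out in turn. Of the 3 transcripts of blocking proteins in the set, Il1rn thus rose, Il18bp fell and Il1r2 did not pass the threshold. The call of Il18bp was lost in 2 of the fits that left out 1 library. Its log2 fold change stayed between −0.65 and −0.48 in all such fits. The 2 fits that lost the call called 1.51% and 2.50% of all genes, against 5.43% with all libraries.

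Nlrp3, at chr11:59541568-59566956, the sensor whose transcription macrophages raise before the inflammasome can assemble, was at 24237, 26459 and 26379 normalised counts in Pdcd1f/f and at 27947, 28057 and 28833 in Pdcd1f/fLysMcre. The groups did not overlap, and Pdcd1f/f replicate 1 was the lowest library. The log2 fold change was 0.14 ± 0.06 (SE, n = 3; 95% interval 0.004 to 0.28; adjusted p = 0.193 by edgeR), and it was 0.10 without the 2 libraries low in GC-rich transcripts (adjusted p = 0.0995). The exon sequence of Nlrp3 is 51.0% GC, the highest of the 10 members. Casp1, at chr9:5298517-5307265, was at 4907, 4115 and 3693 normalised counts in Pdcd1f/f and at 4088, 4951 and 3904 in Pdcd1f/fLysMcre. The groups overlapped, and the highest library of each genotype was the one low in GC-rich transcripts, while the exon sequence of Casp1 is 41.1% GC, the lowest of the 10 members. The log2 fold change was 0.03 ± 0.11 (SE, n = 3; 95% interval −0.23 to 0.28; adjusted p = 0.907 by edgeR). Once offsets for GC content and length were removed, the coefficient of variation of Casp1 went from 14.5% to 5.33% in Pdcd1f/f and from 12.9% to 6.38% in Pdcd1f/fLysMcre, and its log2 fold change was −0.02. Without the 2 libraries low in GC-rich transcripts the log2 fold change of Casp1 was 0.03 (adjusted p = 0.766 by edgeR). The cause of the spread of Casp1 was not tested. The offsets did not narrow the spread of every member: in Pdcd1f/f the coefficient of variation was lower for 5 members and higher for 5, among them Il1rn (from 2.30% to 5.36%), Il1a (from 3.73% to 5.51%) and Il1b (from 2.06% to 2.49%), and in Pdcd1f/fLysMcre it was lower for all members but Il18bp.

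With GC and length offsets in the fit, 4 members were called higher and 3 lower, where 19.1% of all genes were called. Il1a (0.64), Il1b (0.30) and Il1rn (0.56) kept their direction and call, Il18bp was again lower (−0.52), and the calls that the offsets added were Nlrp3 (0.19, adjusted p = 0.00247 by edgeR), Il18 (−0.22, adjusted p = 0.00708) and Il1r1 (−0.34, adjusted p = 0.0286). Il1r2, Il1rap and Casp1 were not called in that fit. Without the 2 libraries low in GC-rich transcripts, 4 members were higher and 3 lower, with Il1rap in the place of Nlrp3, where 26.2% of all genes were called.

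**Figure D3:**
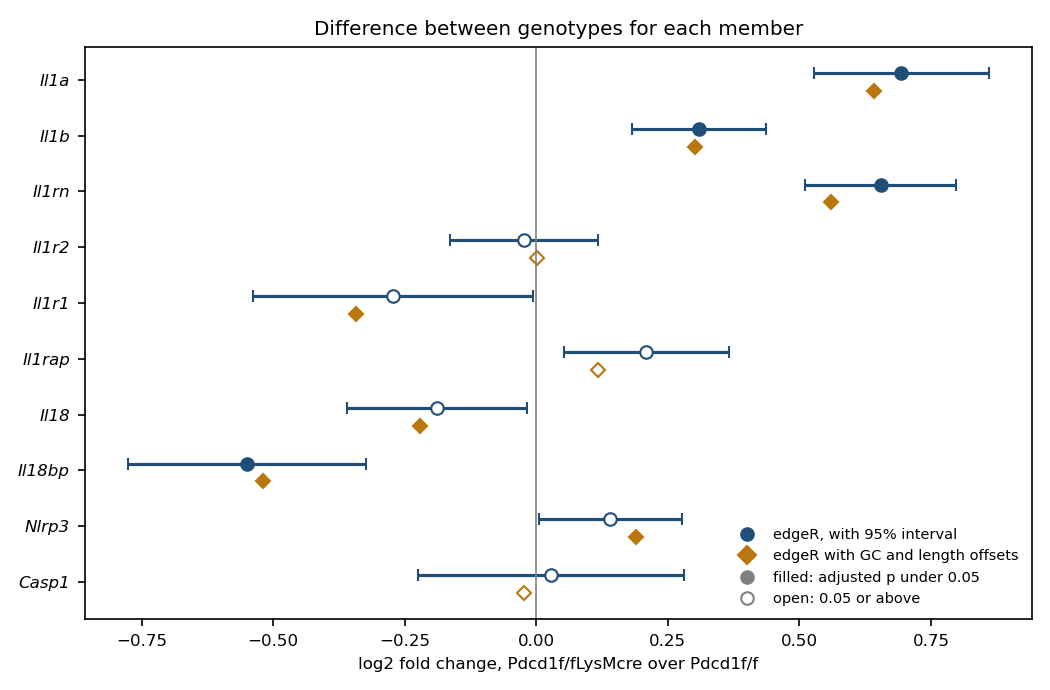
Log2 fold change between the genotypes (x axis, Pdcd1f/fLysMcre over Pdcd1f/f) for each member from edgeR with its 95% interval (blue circles) and from edgeR with GC and length offsets (orange diamonds), where filled symbols have an adjusted p under 0.05. Il1a, Il1b and Il1rn lie to the right of 0 and Il18bp to the left under both fits, and Nlrp3, Il18 and Il1r1 are filled only with the offsets.

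The levels of different genes were compared per kb of exon, in CPM, which scales the counts of a library to its TMM-adjusted total. In Pdcd1f/f TAMs the order was Il1b at 654 to 678 CPM per kb, Il1rn at 142 to 148, Nlrp3 at 126 to 139, Casp1 at 52.1 to 69.3, Il1r2 at 45.2 to 49.6, Il18 at 40.1 to 45.0, Il1a at 30.9 to 33.2, Il18bp at 6.99 to 8.10, Il1rap at 3.52 to 3.85 and Il1r1 at 1.16 to 1.24. No neighbours in this order overlapped in their 3 libraries, although Il1rn and Nlrp3, Casp1 and Il1r2, and Il1r2 and Il18 lay close together. The transcript of the signalling receptor was thus the lowest of the set, and that of the decoy receptor was at 47.4 ± 2.21 CPM per kb against 1.20 ± 0.04 (SD, n = 3). IL-1β transcripts outweighed IL-1α transcripts, with means of 670.0 and 32.1 CPM per kb. In Pdcd1f/fLysMcre TAMs Il1a moved from the seventh place to the fifth, at 49.0 to 57.1 CPM per kb, where it overlapped Casp1 at 55.4 to 70.1 and lay above Il1r2 at 45.0 to 47.5 and Il18 at 35.0 to 39.7. The other members kept their order. With the length of the longest transcript, 4 members in Pdcd1f/f and 5 in Pdcd1f/fLysMcre took another place. Il1a was then in the sixth place in Pdcd1f/fLysMcre, above Il18 but below Il1r2 (means of 51.9, 43.3 and 62.6 CPM per kb), so its place above Il1r2 holds for the union of exons alone. With that length Il1r2 was above Casp1 and Il1rap above Il18bp in both genotypes, and Il1b, Il1rn and Nlrp3 stayed the 3 highest and Il1r1 the lowest.

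**Figure D4:**
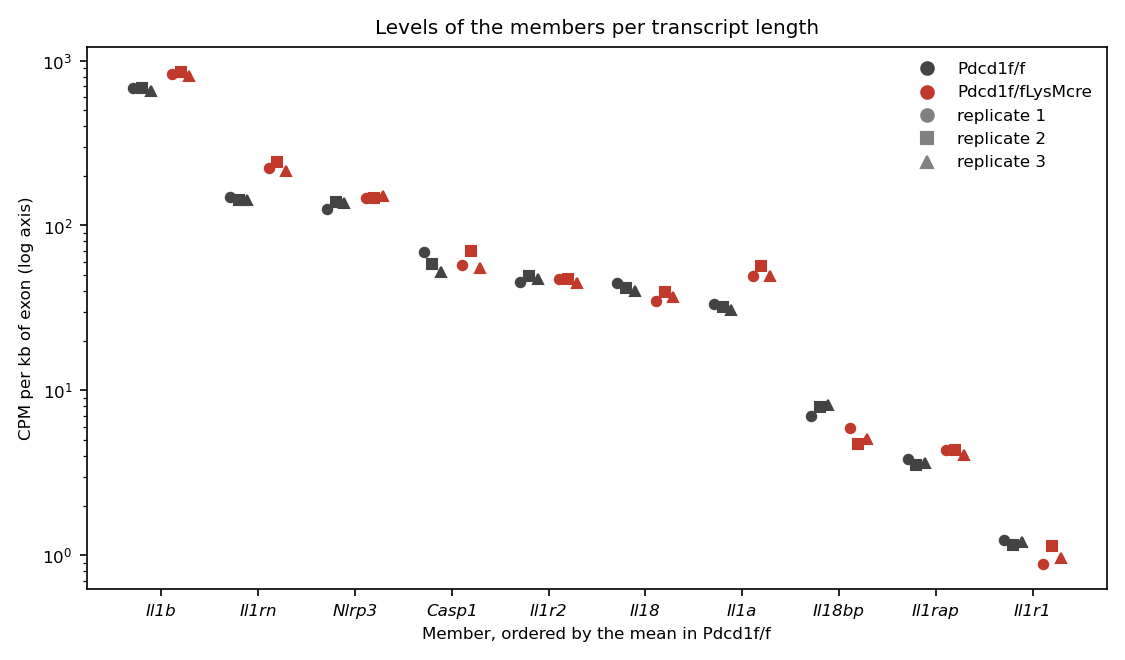
Level of each member in CPM per kb of exon (log axis) in the Pdcd1f/f libraries (grey) and the Pdcd1f/fLysMcre libraries (red), ordered by the mean in Pdcd1f/f. Il1b is highest at 654 to 678 CPM per kb in Pdcd1f/f, Il1r1 is lowest at 1.16 to 1.24, and in Pdcd1f/fLysMcre Il1a lies above Il18 and, with this length but not with that of the longest transcript, above Il1r2.

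With earlier results of these data known, 61 other genes of the pathway were listed around the members in 7 lists. Of these genes, 57 had counts and 52 were tested. Of these, 4 rose, 5 fell and 43 did not pass the threshold (5.43% of all genes called), with a median log2 fold change of −0.03. With GC and length offsets 13 were higher and 10 lower (19.1% of all genes called), and without both libraries low in GC-rich transcripts 12 and 13 (26.2% of all genes called). Among the genes named below for a high level that did not pass with all libraries, Il1rl1, Capn2 and Cxcl2 were called higher in both of these fits. Capns1 and Tollip were called higher with the offsets alone, and Il33 and Tab2 were higher and Ninj1 and Nfkbia lower without both libraries alone. Among the 6 other ligands of the family, Il36b, Il36rn and Il1f10 had 0 counts in all libraries and Il36a was under the filter. Il33, the alarm cytokine of barrier tissue, was at 759, 497 and 490 normalised counts in Pdcd1f/f and at 734, 808 and 641 in Pdcd1f/fLysMcre (log2 fold change 0.32, 95% interval −0.04 to 0.68, adjusted p = 0.255 by edgeR). Pdcd1f/f replicate 1 was far above the other Pdcd1f/f libraries for Il33, and without it Il33 was called higher (0.55, adjusted p = 0.00489 by edgeR), as it was without both libraries low in GC-rich transcripts (0.48, adjusted p = 0.00166). Il36g had a log2 fold change of 0.25 with a 95% interval of −0.22 to 0.72. Whether the differences of Il33 and Il36g differ from those of Il1a and Il1b was not tested.

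Receptor genes of the family lie side by side on chromosome 1, where Il1r2, Il1r1, Il1rl2, Il1rl1, Il18r1 and Il18rap fill chr1:40074079-40551705. Il1rl2, the receptor of IL-36, was at 1063, 989 and 1114 normalised counts in Pdcd1f/f and at 654, 698 and 647 in Pdcd1f/fLysMcre. The groups were far apart, and Il1rl2 fell to 0.633 times the control level (log2 fold change −0.66 ± 0.08, SE, n = 3; adjusted p = 0.0015 by edgeR), a call kept in each of the 6 fits that left out 1 library. Its neighbour Il1rl1, the receptor of IL-33, had a log2 fold change of 0.42 with a 95% interval of 0.15 to 0.68 and no overlap between the groups (adjusted p = 0.0693 by edgeR). Il1rl1 was called higher with GC and length offsets (0.34, adjusted p = 0.0151 by edgeR), without both libraries low in GC-rich transcripts (0.45, adjusted p = 0.00243) and without Pdcd1f/f replicate 1 (adjusted p = 0.0063). Il18rap had −0.18 with an interval of −0.42 to 0.06. Il18r1, the ligand-binding chain for IL-18, was under the filter. Of the 4 tested genes among other receptors and regulators, Il1rl2 was the 1 past the threshold in edgeR with all 6 libraries and no offsets. The alternative test, DESeq2, also called Il1rl1 higher (0.41, adjusted p = 0.0154).

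Among the inflammasome sensors and adaptors, 12 were tested, of which 1 rose and 2 fell. Pycard, which encodes the adaptor ASC that links NLRP3 to caspase-1, was at 3059, 3490 and 3138 normalised counts in Pdcd1f/f and at 2346, 2504 and 2558 in Pdcd1f/fLysMcre. Its groups did not overlap, and it fell by 0.38 on the log2 scale (SE 0.07, n = 3; adjusted p = 0.0156 by edgeR). Nlrp1b, a sensor cleaved by bacterial proteases, fell by 0.53 (SE 0.10; adjusted p = 0.0144 by edgeR). Naip1, which recognises bacterial secretion needles, went from 149, 126 and 107 normalised counts to 262, 206 and 213 and rose by 0.83 (SE 0.16; adjusted p = 0.0163 by edgeR), but it belongs to a family of close copies between which short reads could be split, and its relatives Naip2, Naip5 and Naip6 had values of −0.05, −0.08 and −0.03. Each of these 3 calls held in 3 of the 6 fits that left out 1 library. Pycard was lost without Pdcd1f/f replicate 2 and without Pdcd1f/fLysMcre replicates 1 or 2, Nlrp1b without Pdcd1f/f replicate 2 and without Pdcd1f/fLysMcre replicates 2 or 3, and Naip1 without Pdcd1f/f replicates 2 or 3 and without Pdcd1f/fLysMcre replicate 1. Mefv and Nek7, the highest per length of those not past the threshold, had log2 fold changes of 0.02 (95% interval −0.12 to 0.15) and 0.03 (−0.13 to 0.18).

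Casp1 lies beside Casp4 and Casp12, other inflammatory caspases, on chromosome 9. Casp12, at chr9:5345430-5373032, was at 186, 125 and 119 normalised counts in Pdcd1f/f and at 65.7, 61.9 and 64.9 in Pdcd1f/fLysMcre. It was below the controls in every library and fell to 0.446 times their level (log2 fold change −1.16 ± 0.20, SE, n = 3; adjusted p = 0.00911 by edgeR), a call lost without Pdcd1f/fLysMcre replicate 1 (adjusted p = 0.0582). Casp4, named after its value was seen because it lies between them, had a log2 fold change of −0.01 with a 95% interval of −0.25 to 0.23. Casp12 was the 1 gene of the 6 in the list of caspases and pore proteins past the threshold, and Ninj1 and Casp8, the highest per length of the rest, had −0.28 (−0.55 to −0.004) and −0.05 (−0.20 to 0.10). None of the 5 ion channels and proteases of cytokine processing passed the threshold in edgeR with all 6 libraries and no offsets. Capn2, a calpain subunit of the kind that cleaves the IL-1α precursor, was at 0.20 (95% interval 0.08 to 0.33; adjusted p = 0.0639 by edgeR) and Capns1 at −0.03. P2rx7 was at −0.21 (−0.35 to −0.08; adjusted p = 0.0670 by edgeR), with no overlap between the groups. The alternative test, DESeq2, called Capn2 higher (adjusted p = 0.0150) and P2rx7 lower (adjusted p = 0.0215). P2rx7 was also called lower with GC and length offsets (adjusted p = 0.00636 by edgeR) and without both libraries low in GC-rich transcripts (0.00474).

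None of the 13 genes of signalling next to the receptor passed the threshold in edgeR with all 6 libraries and no offsets. Their median log2 fold change was 0.11. The alternative test, DESeq2, called Traf6 (0.23, adjusted p = 0.0170) and Irak3 (0.26, adjusted p = 0.0391) higher and Peli2 lower (−0.40, adjusted p = 0.0339). In edgeR these genes were called with GC and length offsets and without both libraries low in GC-rich transcripts. Tab2 and Tollip, the highest per length, had 0.14 (95% interval −0.02 to 0.30) and 0.10 (−0.04 to 0.24). Among 10 transcripts that IL-1 induces in many cells, 3 rose, 1 fell and 6 did not pass. Ptgs2, the inducible cyclooxygenase, was at 34258, 32220 and 33373 normalised counts in Pdcd1f/f and at 43590, 45396 and 41126 in Pdcd1f/fLysMcre. It did not overlap between the groups and rose by 0.38 on the log2 scale (SE 0.06; adjusted p = 0.00603 by edgeR), a call kept in 4 of the 6 fits that left out 1 library and lost without Pdcd1f/f replicate 2 or Pdcd1f/fLysMcre replicate 1. Csf3, the granulocyte growth factor, rose by 0.56 (adjusted p = 0.0245 by edgeR) and Il6 by 0.56 (adjusted p = 0.0403), both called in 1 of the 6 fits that left out 1 library, the fit without Pdcd1f/f replicate 1. Saa3, an acute-phase protein, moved the other way, from 5471, 5716 and 5736 to 1797, 2045 and 2022 normalised counts, 0.347 times the control level (log2 fold change −1.53 ± 0.07, SE, n = 3; adjusted p = 2.16e-06 by edgeR). Genes of this list thus moved in both directions around a median log2 fold change of 0.03, and Cxcl2 and Nfkbia, the highest per length of those not past, had 0.15 (0.02 to 0.28) and −0.10 (−0.24 to 0.04).

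**Figure D5:**
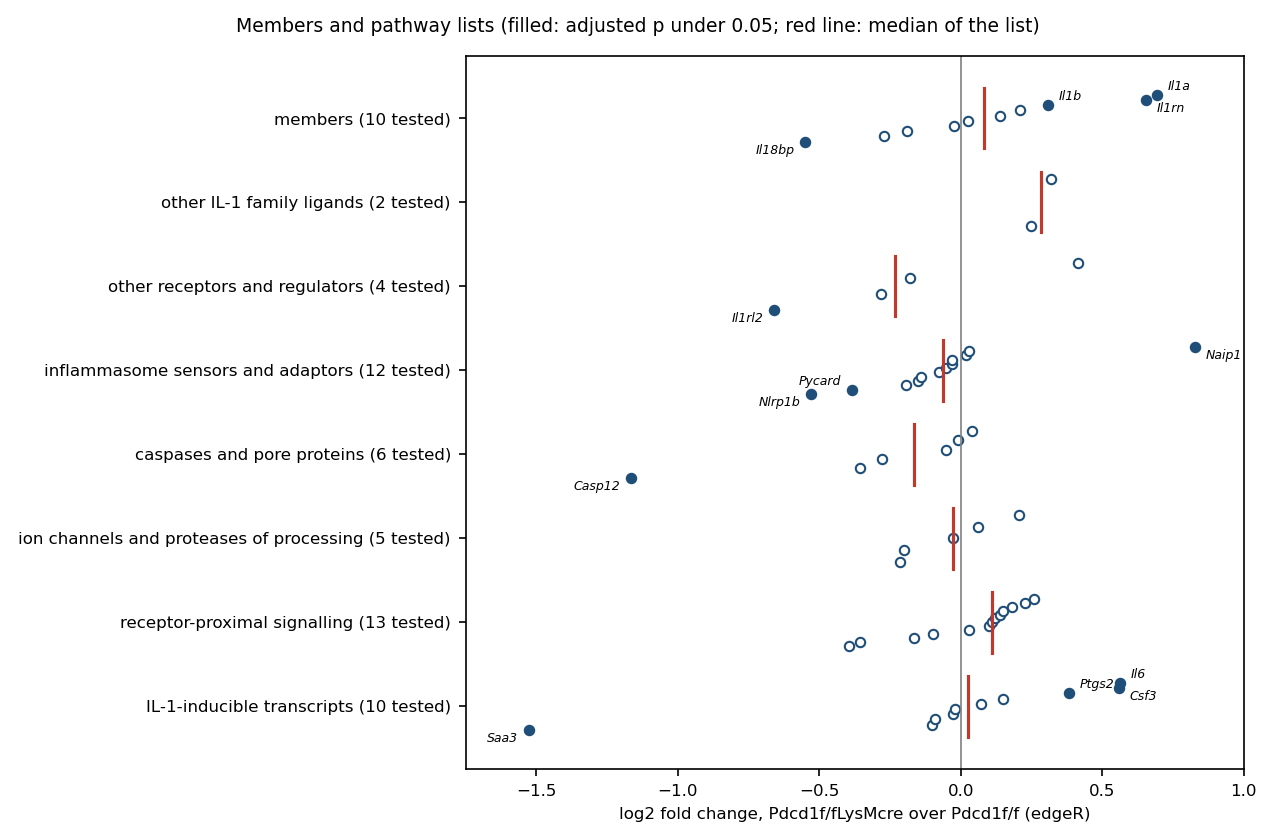
Log2 fold change (x axis, Pdcd1f/fLysMcre over Pdcd1f/f, edgeR) of the 10 members and of the tested genes of 7 pathway lists, 1 circle a gene, filled and named where the adjusted p is under 0.05, with a red line at the median of each list. Of the 52 pathway genes, 4 are filled to the right of 0 and 5 to the left, and the medians of the lists lie between −0.23 and 0.28.

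The libraries were also read for the cells in them, because a change in the mix of cells and a change of RNA per cell cannot be told apart in bulk samples. The markers of the sorted cells were high, with the sum of 6 macrophage markers at 206442 to 221023 normalised counts in Pdcd1f/f and at 187092 to 189819 in Pdcd1f/fLysMcre, and Adgre1, which encodes F4/80, and Csf1r were lower in Pdcd1f/fLysMcre (log2 fold changes −0.38 and −0.32, adjusted p = 0.00496 and 0.0308 by edgeR). Adgre1 was called in 4 of the 6 fits that left out 1 library, not without Pdcd1f/f replicate 2 or Pdcd1f/fLysMcre replicate 1, and Csf1r in 2, those without Pdcd1f/f replicate 1 and without Pdcd1f/fLysMcre replicate 3. Of the other macrophage markers, Ptprc was at 0.11 (95% interval −0.04 to 0.26), Cd68 at −0.06 (−0.20 to 0.07), Itgam, which encodes CD11b, at −0.16 (−0.34 to 0.01) and Fcgr1 at −0.21 (−0.35 to −0.08). Fcgr1 was called lower with GC and length offsets (adjusted p = 0.0128 by edgeR) and without both libraries low in GC-rich transcripts (0.000668), and Itgam in the latter fit alone (0.00885). Neutrophils are also a source of Il1b, Il1rn and Il1r2. The 12 neutrophil markers summed to 6583 to 6778 normalised counts in Pdcd1f/f and to 5506 to 5642 in Pdcd1f/fLysMcre, with Csf3r and Mmp8 lower (−0.51 and −0.48, adjusted p = 0.00686 and 0.00393 by edgeR). Ly6g, Elane, Mpo and Camp of this list had at most 6 counts in any library, which does not show that neutrophils were absent. The call of Csf3r was lost without Pdcd1f/f replicate 2. The other 4 tested genes of the list differed in sign, with S100a8 at 0.23 (95% interval −0.01 to 0.47, adjusted p = 0.22 by edgeR), S100a9 at 0.12 (−0.07 to 0.32), Cxcr2 at 0.03 (−0.39 to 0.45) and Retnlg at −0.95 (−1.66 to −0.23, adjusted p = 0.11). The groups did not overlap for Retnlg, which was called lower with GC and length offsets (−0.98, adjusted p = 0.0455 by edgeR) and not without both libraries low in GC-rich transcripts (−0.78, adjusted p = 0.155). S100a8 was called higher with GC and length offsets (0.19, adjusted p = 0.0469 by edgeR), without both libraries low in GC-rich transcripts (0.33, adjusted p = 0.00302) and without Pdcd1f/f replicate 1 (adjusted p = 0.00906). Col1a2 was the 1 called gene of the 7 fibroblast and tumor markers (−1.0, adjusted p = 0.0121 by edgeR; the list summed to 3070 to 3328 in Pdcd1f/f and to 2934 to 3236 in Pdcd1f/fLysMcre), and its call was lost without Pdcd1f/f replicate 3 or Pdcd1f/fLysMcre replicate 1. The other tested genes of that list were Col1a1 at −0.78, which was called lower without both libraries low in GC-rich transcripts (−1.05, adjusted p = 0.0138 by edgeR), Pdgfrb at −0.42, Col3a1 at −0.07, Dcn at 0.03 and Pdgfra at 0.05. The 6 dendritic cell markers summed to 256 to 341 normalised counts in Pdcd1f/f and to 326 to 395 in Pdcd1f/fLysMcre, with a median log2 fold change of 0.35 over the 4 tested. Among them Flt3 had 0.67 with no overlap between the groups (adjusted p = 0.137 by edgeR), called without Pdcd1f/f replicate 1 (adjusted p = 0.0351), and Zbtb46 had 0.69 (adjusted p = 0.12), called with GC and length offsets (adjusted p = 0.0465) and without both libraries low in GC-rich transcripts (0.0379). The other tested dendritic cell markers, Itgae and Ccr7, had −0.29 (95% interval −0.96 to 0.38) and 0.03 (−0.36 to 0.43). No gene of the lists for dendritic cells, T cells, NK cells, endothelium or mast cells was called with all 6 libraries and no offsets, and no B cell marker passed the filter. The part of these cells in the member values was not tested.

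Over the 6 libraries, the 5 genes most like Il1a among the other 14468, by Pearson's r of log2(CPM + 1), were Ppbp (0.999), Lcp1 (0.997), 6330403L08Rik (0.997), Ero1l (0.997) and Slfn2 (0.997), with Il1b in the sixth and Il1rn in the seventh place. The 5 most like Il1b were 6330403L08Rik (0.999), Eaf1 (0.998), Asns (0.997), Champ1 (0.997) and Il1a (0.997), with Il1rn in the sixth place. Il1a, Il1b and Il1rn were thus close to each other over the libraries. In the order for Il1a the other members came later, from the place 773 of Il1rap (r = 0.919) to the place 14231 of Il18bp (r = −0.961). A late place can mean an inverse relation, as for Il18bp. These coefficients describe 6 points that share the difference between 2 genotypes.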

How the data were processed

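RNA-seq of 6 TAM libraries was analysed, 3 of each genotype, grouped by the sample titles. The authors made stranded polyA libraries, sequenced paired-end reads, removed adapters with cutadapt (version 2.5), aligned to GRCm38 with STAR (version 2.7.3a) and counted Ensembl genes with featureCounts (Subread 1.6.2). They deposited these raw counts (unit counts, whole numbers for each gene). They also deposited a normalised table of 16552 genes (unit signal), in which each count is divided by 1 DESeq2 size factor per library (0.895 to 1.08). The strand setting of the counting is not given in the sources used here.

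Raw counts were tested with edgeR (version 4.0.16, R 4.3.3): filterByExpr (minimum count 10, minimum total 15), TMM normalisation, robust glmQLFit, the two-sided glmQLFTest, and Benjamini-Hochberg adjustment over all 14469 genes with a threshold of 0.05. Standard errors came from the fold change and the F statistic. Values per library are the deposited normalised counts. No exact permutation test is given, since 3 against 3 cannot go below p = 0.1. Offsets for GC content and length came from a loess fit per library (span 0.5). Positions, lengths and GC content came from GENCODE M21 and promoters from RefSeq. A count of 3, or 0.0583 to 0.0717 CPM, was taken as the limit of detection, for counting error only.

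The members and lists were chosen with earlier results of these data known. The genes named are all members, pathway genes past the threshold, up to 2 a list with the highest level not past it, Pdcd1 and Lyz2, defining and called markers, and the 5 genes most like Il1a and Il1b. Naip2, Naip5, Naip6, P2rx7, Traf6, Irak3, Peli2, Ptprc, Cd68, Fcgr1, Col1a1, Col3a1, Pdgfra, Pdgfrb, Dcn, S100a8, S100a9, Cxcr2, Retnlg, Flt3, Zbtb46, Itgae, Ccr7, Casp4, Numa1, Bco2, Il1bos and the untested genes were named after their values were seen. Alternatives were RLE size factors, library size alone, other count filters, DESeq2 (version 1.42.0) with Benjamini-Hochberg or Storey adjustment, a replicate block, the offsets, a threshold of 0.01, single libraries omitted and, added after the data were seen, both libraries low in GC-rich transcripts left out. The fit was tested on simulated counts of 14262 genes, where edgeR recovered 52 of 66 genes changed by 0.5 on the log2 scale and 67 of 67 changed by 1, with 13 false calls among 199. These counts had the same dispersion for all genes, no GC bias and no difference between replicates beyond depth. The real libraries differed by GC content, so these figures check the code and do not give the power or false calls for the real data.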

Additional observations from a re-analysis of the deposited data

How the results depend on the processing

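Over 17 other settings for each of the 10 members, 146 of 170 log2 fold changes kept their direction and their side of the threshold, 7 were no longer past it, 10 were newly past it and 7 reversed. Il1a (0.62 to 0.73) and Il1rn (0.56 to 0.69) passed in every setting run. Values that reversed were those of Il1r2 with GC and length offsets (0.0013) and with the offsets and a replicate block (0.0020), and of Casp1 with the offsets (−0.023) and with the offsets and the block (−0.024). With each library left out, Il1r2 ran from −0.065 to 0.0085, reversed without Pdcd1f/f replicate 2, and Casp1 from −0.083 to 0.14, reversed without Pdcd1f/f replicate 3 and without Pdcd1f/fLysMcre replicate 2. The cause of these changes was not tested.

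The number of members called lower was 3 with the offsets, 3 with the offsets and the block, 3 without both libraries low in GC-rich transcripts, 0 at a threshold of 0.01 and 0 to 1 when each library was left out. Genes called in all were 350 higher and 436 lower. They were 884 and 1067 for all genes with at least 1 count, 755 and 843 with DESeq2, 899 and 976 with Storey q-values, 1664 and 1097 with the offsets, 1708 and 1154 with the offsets and the block, 1801 and 1956 without both libraries, 109 and 174 at a threshold of 0.01, and 82 to 1478 higher and 139 to 1703 lower when each library was left out. Pathway genes called, 4 higher and 5 lower, were 6 and 8, 8 and 7, 8 and 7, 13 and 10, 15 and 10, 12 and 13, and 1 and 3 in the same order, and 0 to 10 higher and 3 to 11 lower when each library was left out. The length of the longest transcript put 4 members in Pdcd1f/f and 5 in Pdcd1f/fLysMcre at another place in the order of levels.

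Replicate numbers did not pair the libraries: libraries with the same number deviated with correlations of −0.08, −0.36 and 0.62. With the number as a replicate block, 460 genes were called higher and 567 lower, and the members' calls were the same 3 higher and 1 lower.

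Pdcd1 and the genes under the filter had few counts, and the part of depth in their values was not tested. All members passed the filter.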
